A study of Mus musculus with 6 samples.

Results

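The nuclear genes of oxidative phosphorylation were compared between double-positive (DP) thymocytes that keep Hdac3 and DP thymocytes in which it was knocked out. A gene was a member where its symbol starts with Nduf, Uqcr, Atp5 or Cox4 to Cox8, or is Sdha, Sdhb, Sdhc or Sdhd, and 89 of the 19938 genes named on the array met this rule. They were measured by 114 probe sets, and for the 17 genes with several the brightest over the 6 arrays stood for the gene. The symbols put 36 genes in complex I, 7 among the complex I assembly factors, 4 in complex II, 8 in complex III, 17 in complex IV and 17 in ATP synthase. A further 6 probe sets name a member together with another gene or pseudogene and were not used for a member.

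DP thymocytes are the thymic T cell precursors that display CD4 and CD8 together, and Hdac3 is the histone deacetylase of the NCoR and SMRT corepressor complexes. The wild-type (WT) group was 3 arrays of DP thymocytes from C57BL/6 mice aged 3 weeks. The knockout (KO) group was 3 arrays of the same cell type, strain and age from mice labelled LCK:Hdac3 KO, and neither group was treated. RNA of 2 mice per genotype was pooled, and since the mice behind each array are not given, p-values measure the spread between these arrays, which may be technical in part. Lck encodes a T cell kinase whose promoters are widely used to drive Cre recombinase in developing thymocytes, but which promoter and which part of Hdac3 were involved was not given here.

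Oxidative phosphorylation is the final stage of respiration in the inner mitochondrial membrane. Complex I takes electrons from NADH and complex II takes them from succinate. Ubiquinone carries them to complex III, cytochrome c carries them on to complex IV, and complex IV hands them to oxygen. Complexes I, III and IV pump protons, and ATP synthase lets the protons flow back to make ATP. All subunits of complex II and most of the others are encoded in the nucleus, so the members had to be made as nuclear mRNA, translated and imported.

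Promoters of these genes are known for binding sites of the factors NRF1, GABP, which belongs to the ETS family, and YY1. The windows below hold the 120 bases before the RefSeq start of 4 genes on which the results turn, in mouse build GRCm38.p6. All 4 genes lie on the minus strand, and each sequence runs 5′ to 3′ on that strand. They are shown because Atp5g2 and Ndufa1 were the members called lower, Cox7a2l was the member called higher after quantile normalization, and Atp5h was the ATP synthase gene with the largest positive difference. Capitals mark a match to GCATGCGC (NRF1), CCGGAAG (ETS) or AAGATGGCG (YY1) on either strand.
Atp5g2, chr15:102671048-102671167: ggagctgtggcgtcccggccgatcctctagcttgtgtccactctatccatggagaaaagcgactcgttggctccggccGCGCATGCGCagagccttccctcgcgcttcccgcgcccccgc
Ndufa1, chrX:37191239-37191358: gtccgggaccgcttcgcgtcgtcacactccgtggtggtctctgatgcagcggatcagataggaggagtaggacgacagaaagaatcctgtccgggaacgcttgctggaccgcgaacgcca
Cox7a2l, chr17:83514334-83514453: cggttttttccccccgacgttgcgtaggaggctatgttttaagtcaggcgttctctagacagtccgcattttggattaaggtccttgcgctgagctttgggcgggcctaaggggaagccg
Atp5h, chr11:115419920-115420039: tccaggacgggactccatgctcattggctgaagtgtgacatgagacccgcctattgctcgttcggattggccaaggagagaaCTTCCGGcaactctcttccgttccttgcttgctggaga
The Atp5g2 window held the NRF1 letters on both strands, in 2 overlapping matches. In the Atp5h window there was 1 match to the ETS letters, and the windows of Ndufa1 and Cox7a2l held none of the 3 motifs.

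The targeted gene was checked first. Hdac3 read 9.40, 9.42 and 9.44 (log2) in WT and 8.28, 8.32 and 8.32 in KO, with no overlap and a difference of -1.12 (SE 0.08, limma adjusted p = 3.5e-04), which left 46.2% of the WT signal. The probes of this probe set were not placed relative to the deleted part. Of 12 DP thymocyte markers 10 were measured, and their median on each array lay between 11.28 and 11.50 in WT and between 11.35 and 11.40 in KO. Of these 10, limma called 2 (20.0%, against 5.79% of all tested probe sets), in opposite directions, and the same 2 after quantile normalization. Cd1d1, the lipid-presenting molecule, differed by -0.65 (limma adjusted p = 0.020, and 0.033 after quantile normalization), and Themis, a signalling protein of thymocytes, by 0.43 (limma adjusted p = 0.047, and 0.048). The other 8, among them Cd4 (-0.00), Cd8a (-0.04) and Rag1 (0.07), were not called. The median of 12 neutrophil markers was 4.40 to 4.52 in WT, 4.46 and 4.51 in KO arrays 1 and 3, and 6.02 in KO array 2. All 12 had a positive difference, none was called by limma (2 had an unadjusted p under 0.05, and none was called after quantile normalization), and the part of such cells in the results was not tested. The median of 10 macrophage and dendritic cell markers was 4.69 to 4.98 in WT and 5.06 to 5.12 in KO, without overlap, with a median difference of 0.09, or -0.01 after quantile normalization, and its part in the results was not tested. Array medians of B cell, erythroid and thymic epithelial markers lay between 4.56 and 5.22 on all 6 arrays.

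Signal was compressed on the KO arrays, where the middle range of log2 values (25th to 75th percentile) spanned 3.25, 3.06 and 3.18, compared with 3.49, 3.42 and 3.29 in WT. This bears on the members because 81 of the 89 were brighter than the median tested probe set. Results are therefore given on the deposited values, beside probe sets as bright as the members (9762 probe sets between the members' 10th and 90th percentile of mean signal, 5.95 to 9.94), and again after quantile normalization.

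On the deposited values the oxidative phosphorylation genes were on balance slightly lower in KO, and few passed the test. The median difference between KO and WT was -0.15 on the log2 scale, with a middle range (25th to 75th percentile) of -0.25 to -0.02 and extremes of -0.54 and 0.40. Of the 89 genes 67 (75.3%) had a negative difference and 22 a positive one. Limma called 2 genes at an adjusted p under 0.05, Atp5g2 and Ndufa1, both lower, which is 2.25% of the members. Over all 23410 tested probe sets the same test called 1355 (5.79%), of which 946 were lower (4.04%) and 409 higher. Among probe sets as bright as the members it called 9.83%. Without adjustment 31 members had a p under 0.05. The calls over all probe sets were thus 30.2% higher, against 9.56% after median centring and 41.4% where quantile normalization was joined to a filter on dim probe sets. The median of all tested probe sets was 0.02, and median centring moved it to -0.08.

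Non-overlapping arrays gave the same description. Every KO array lay below every WT array for 35 members (39.3%), against 16.5% of all tested probe sets and 31.5% of those as bright. Every KO array lay above every WT array for 8 members (8.99%), against 13.5% of all tested probe sets and 8.43% of those as bright. Those 8 were Ndufa10, Ndufa11, Ndufa4l2, Cox4i2, Cox7a2l, Cox7b2, Cox8c and Atp5h. Probe sets as bright as the members had a median difference of -0.12, and 70.4% of them were negative, against -0.15 and 75.3% for the members. Their median signal was 7.66, lower than the members' 8.24. In the bins of signal near 8.68 and 10.35, described below, the members' medians were -0.18 and -0.13. Those of all tested probe sets there were -0.13 and -0.04. RNA per cell and the number of cells behind each array cannot be told apart in these pooled samples.

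**Figure D1:**
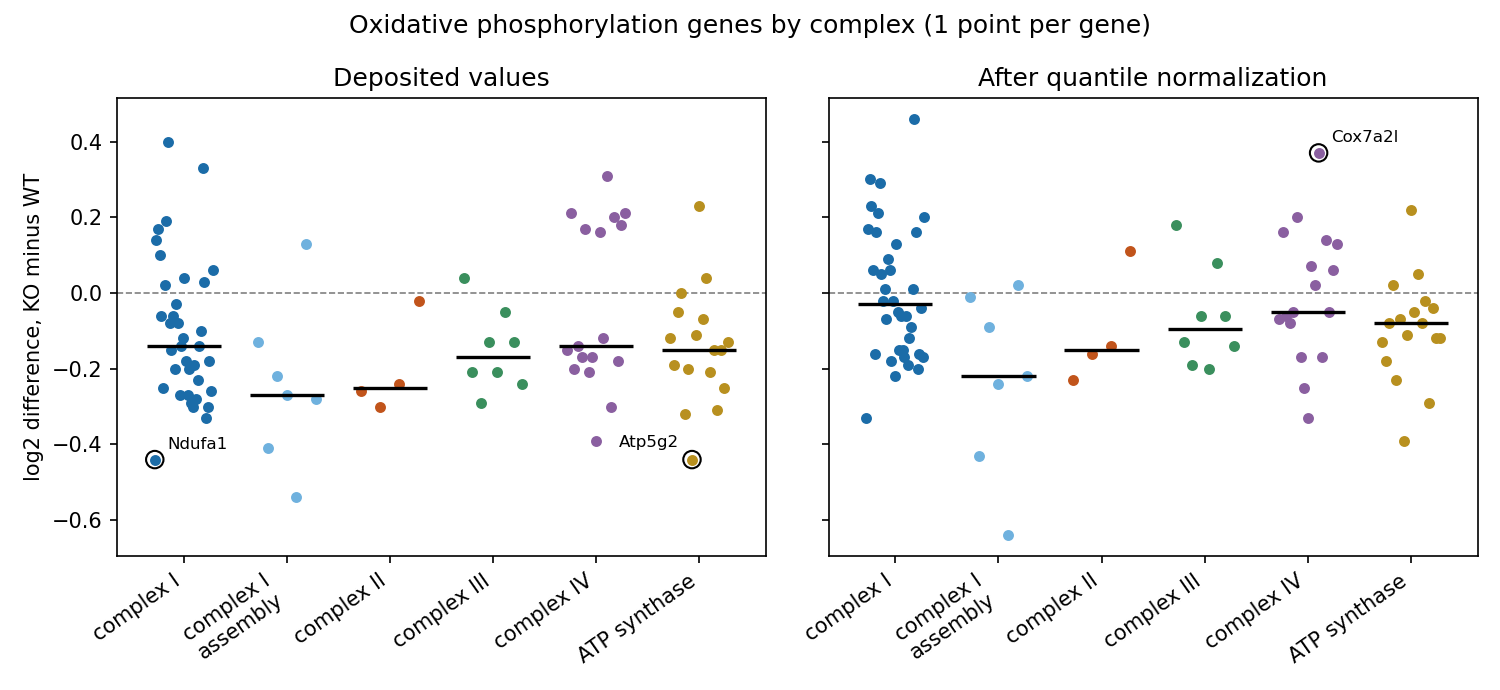
Log2 difference between KO and WT (y axis) of each of the 89 genes, 1 point per gene, by complex (x axis), on the deposited values (left) and after quantile normalization (right). Bars mark the median of each complex and circles the genes called by limma: Ndufa1 and Atp5g2 on the left, Cox7a2l on the right.

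After quantile normalization, which gives all arrays the same distribution of values, the members lay nearer to zero. Their median was -0.06, with 58 of 89 negative (65.2%), and that of probe sets as bright was -0.02. Limma called 1 member, Cox7a2l, which was higher, against 936 of all tested probe sets (4.00%). Every KO array lay below every WT array for 19 members (21.3%), against 13.6% of all tested probe sets and 20.4% of those as bright. The reverse held for 7 members (7.87%), against 11.0% of all tested probe sets and 1366 of the 9762 as bright. The order of the genes was largely kept, with a Spearman correlation of 0.91 between the differences on the deposited and the normalized values of the 89 genes, which share the same arrays.

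The dependence on signal was visible along the whole range. In 10 equal bins of mean signal, the median difference of all tested probe sets was 0.16 in the bin near 5.49, 0.05 near 6.13, -0.14 near 6.97, -0.17 near 7.79, -0.13 near 8.68 and -0.04 near 10.35. The members' medians in those bins were 0.13 (5 genes), -0.17 (5 genes), -0.24 (11 genes), -0.15 (19 genes), -0.18 (24 genes) and -0.13 (22 genes). The members thus had the sign of the other probe sets in each of these bins but the one near 6.13. In the brightest bin, where 22 members lie, the members' median was -0.09 after quantile normalization and that of all its probe sets was -0.02. The 8 members at or below the median signal had a median of 0.17 and 6 positive differences, while the 81 above it had a median of -0.17 and 65 negative ones.

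**Figure D2:**
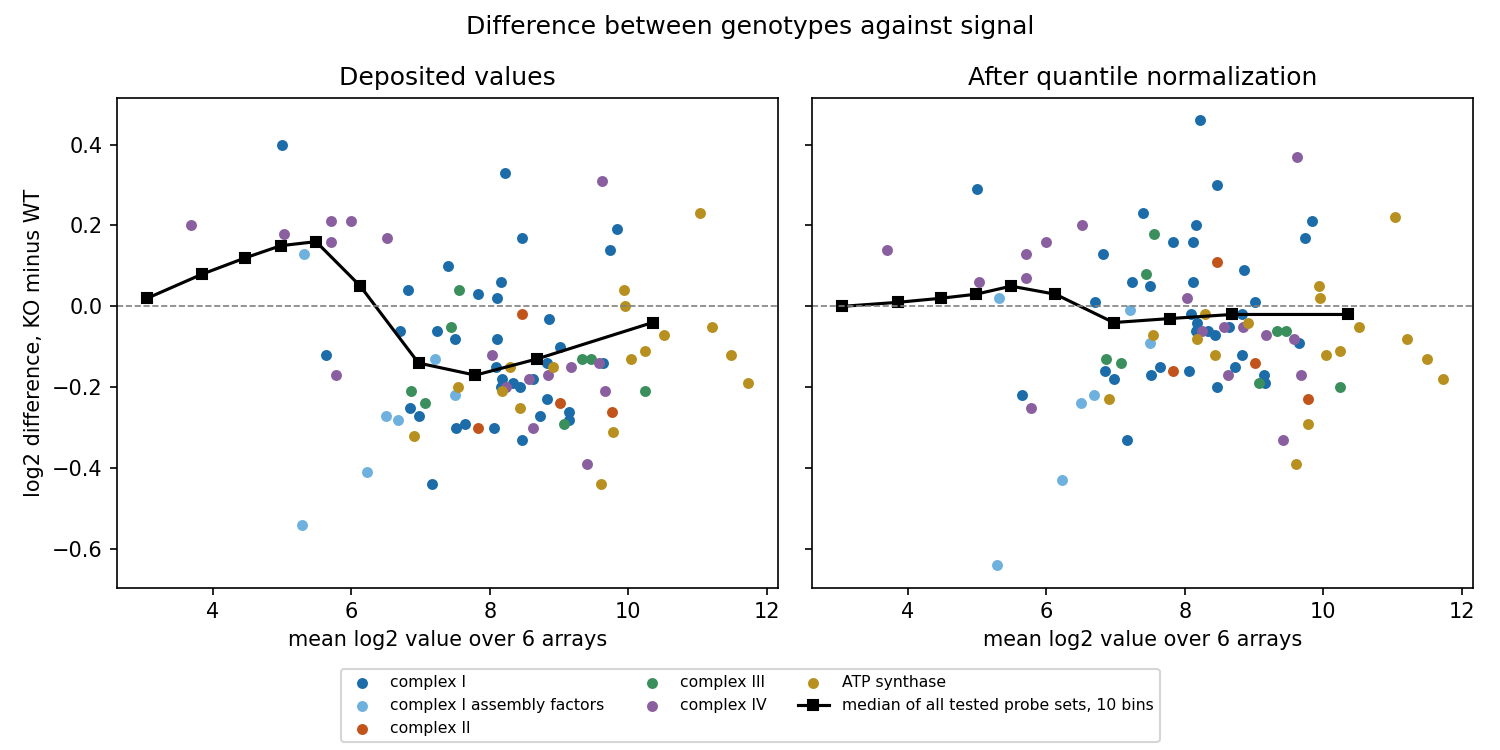
Log2 difference between KO and WT (y axis) against the mean log2 value over the 6 arrays (x axis), on the deposited values (left) and after quantile normalization (right). Coloured points are the 89 genes by complex and black squares the median of all tested probe sets in 10 bins, which runs from 0.16 to -0.17 on the left and stays between -0.04 and 0.05 on the right.

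The 6 arrays did not contribute equally. The median of the 89 genes was 8.37, 8.37 and 8.36 for the WT arrays in order of number and 8.31, 8.11 and 8.24 for the KO arrays. KO array 2, the array with raised neutrophil markers and the narrowest range of signal, was the lowest of the 6 for 44 genes (49.4%), and KO array 3 for 22 (24.7%). Among probe sets as bright the same arrays were lowest for 37.1% and 18.4%. KO array 1 was the lowest for 5 genes, close to the 4 to 7 genes of each WT array. After quantile normalization the medians were 8.25, 8.28 and 8.37 in WT and 8.33, 8.22 and 8.30 in KO, so the groups overlapped. Without KO array 2 the median difference was -0.12 on the deposited values, and limma called none of the members (14 had an unadjusted p under 0.05). No member was called without WT array 2 or without KO array 3 either. Calls over all tested probe sets were 474, 505 and 489 in these fits, against 1355 with all 6 arrays.

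**Figure D3:**
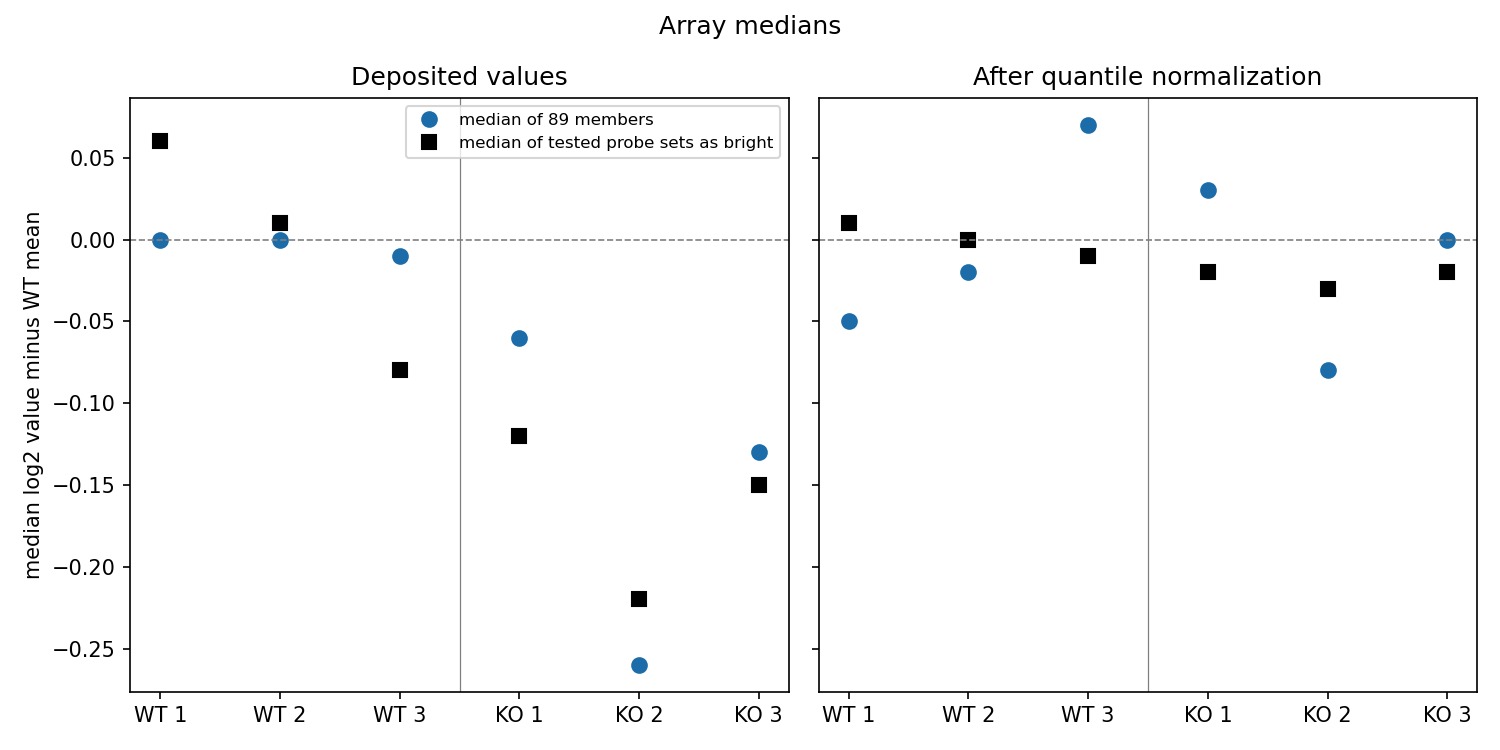
Median log2 value of the 89 genes (circles) and of tested probe sets as bright (squares) on each of the 6 arrays (x axis), less the mean of the 3 WT arrays (y axis), on the deposited values (left) and after quantile normalization (right). On the left the members lie below the WT arrays on all 3 KO arrays, as do the probe sets as bright, and on the right the members of the groups overlap.

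Complex I, the NADH dehydrogenase, had 1 called gene of 36 (2.78%, against 5.79% of all tested probe sets and 9.83% of those as bright). Its median difference was -0.14 (range -0.44 to 0.40), and 26 genes were negative. The 0.40 was that of Ndufa4l2, placed here by its symbol, as was Ndufa4, which was later placed in complex IV. KO lay below WT without overlap for 14 genes (38.9%) and above for 3 (8.33%), against 31.5% and 8.43% of probe sets as bright. After quantile normalization the median was -0.03, with 20 of 36 negative, none called (4 had an unadjusted p under 0.05), and 4 genes without overlap in each direction. On that scale complex I as a set was thus near zero.

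Ndufa1, a small accessory subunit of the membrane arm whose gene lies on the X chromosome, fell. It read 7.44, 7.34 and 7.36 (log2) in WT and 7.13, 6.76 and 6.92 in KO. No KO array reached the lowest WT array, and KO array 2 was the lowest. The difference was -0.44 (SE 0.11, 95% interval -0.69 to -0.20, limma adjusted p = 0.048), which left 73.7% of the WT signal. After quantile normalization it was -0.33 (limma adjusted p = 0.11), and without KO array 2 on the deposited values it was -0.35 (limma adjusted p = 0.15). It was called in 1 of the 6 fits that left out 1 array, the one without KO array 1 (limma adjusted p = 0.039).

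The core subunits that carry electrons along iron-sulfur clusters had negative differences short of the threshold. Ndufs7, which holds the last cluster before ubiquinone, read 8.61, 8.54 and 8.75 in WT and 8.31, 8.21 and 8.37 in KO. Its groups did not overlap, and the difference was -0.33 (limma adjusted p = 0.076), or -0.20 after quantile normalization. Ndufs8, another iron-sulfur subunit, differed by -0.30 (limma adjusted p = 0.16). The complex I genes with the largest positive differences above the median signal were Ndufs5, Ndufa4 and Ndufa11. Ndufs5, an accessory subunit, differed by 0.33 with an SE of 0.18. Its values of 8.37, 7.68 and 8.12 in WT overlapped those of 8.52, 8.09 and 8.56 in KO. A probe set that names Ndufs5 together with Ndufs5-ps, and was not used for the gene, differed by -0.01 (limma adjusted p = 0.97). Ndufa11, an accessory subunit of the membrane arm, differed by 0.17 (limma adjusted p = 0.28), and its 2 probe sets had opposite signs on the deposited values.

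The complex I assembly factors, which build the complex and are not part of it, had a median of -0.27 over 7 genes, with 6 negative and none called (4 had an unadjusted p under 0.05). After quantile normalization it was -0.22, again with 6 negative and none called (2 had an unadjusted p under 0.05). Ndufaf2, an assembly chaperone, read 6.36, 6.51 and 6.43 in WT and 6.03, 5.82 and 6.24 in KO. Its groups did not overlap, with a difference of -0.41 (limma adjusted p = 0.074), or -0.43 after quantile normalization (limma adjusted p = 0.11). Ndufaf7, a protein arginine methyltransferase, differed by -0.28 and Ndufaf4 by -0.27, both with overlapping groups (limma adjusted p = 0.20 for each). Ndufaf5, an arginine hydroxylase that acts on Ndufs7, had the most negative difference of all members and was picked out after its values were seen. Its values were 5.65, 5.75 and 5.27 in WT and 5.26, 4.86 and 4.92 in KO, all under the median signal of 5.77. The groups nearly touched, and the difference was -0.54 (SE 0.15, limma adjusted p = 0.064), or -0.64 after quantile normalization (limma adjusted p = 0.069).

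Complex II, succinate dehydrogenase, had negative differences in all 4 subunits on the deposited values, with a median of -0.25 and none called (3 had an unadjusted p under 0.05). Sdha, the flavoprotein that oxidises succinate, read 9.92, 9.91 and 9.87 in WT and 9.68, 9.64 and 9.59 in KO, a difference of -0.26 (limma adjusted p = 0.10). Sdhb, the iron-sulfur subunit, read 8.01, 8.02 and 7.90 in WT and 7.77, 7.65 and 7.62 in KO, a difference of -0.30 (limma adjusted p = 0.088). The membrane anchor Sdhc read 9.19, 9.09 and 9.10 in WT and had a mean of 8.88 ± 0.12 (SD, n = 3) in KO, a difference of -0.24 (limma adjusted p = 0.16). In these 3 genes every KO array lay below every WT array. Sdhd, the other anchor, had overlapping groups with 8.43, 8.50 and 8.52 in WT and 8.49, 8.42 and 8.47 in KO. Its difference was -0.02 (95% interval -0.22 to 0.17) and took the opposite sign, 0.11, after quantile normalization. The median of the complex was then -0.15, and the groups of Sdha and Sdhb still did not overlap (50.0%, against 20.4% of probe sets as bright).

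Complex III, which passes electrons from ubiquinol to cytochrome c, had a median of -0.17 over 8 genes, with 7 negative and none called (4 had an unadjusted p under 0.05). Every KO array lay below every WT array for 4 of them, Uqcrb, Uqcrq, Uqcrc2 and Uqcr11. That is 50.0% of the complex, against 31.5% of probe sets as bright. Uqcrb, the ubiquinone-binding subunit, read 9.22, 9.35 and 9.07 in WT and 9.02, 8.80 and 8.94 in KO, a difference of -0.29 (limma adjusted p = 0.13). The core protein Uqcrc2 differed by -0.21, and the small subunit Uqcrq by -0.24 (limma adjusted p = 0.18 for each). Uqcr10, a small subunit, had the only positive difference, 0.04, and the catalytic iron-sulfur protein Uqcrfs1, picked after its values were seen, differed by -0.05 with overlapping groups (0.08 after quantile normalization). After quantile normalization the median of the complex was -0.10, and 6 of 8 genes were negative.

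**Figure D4:**
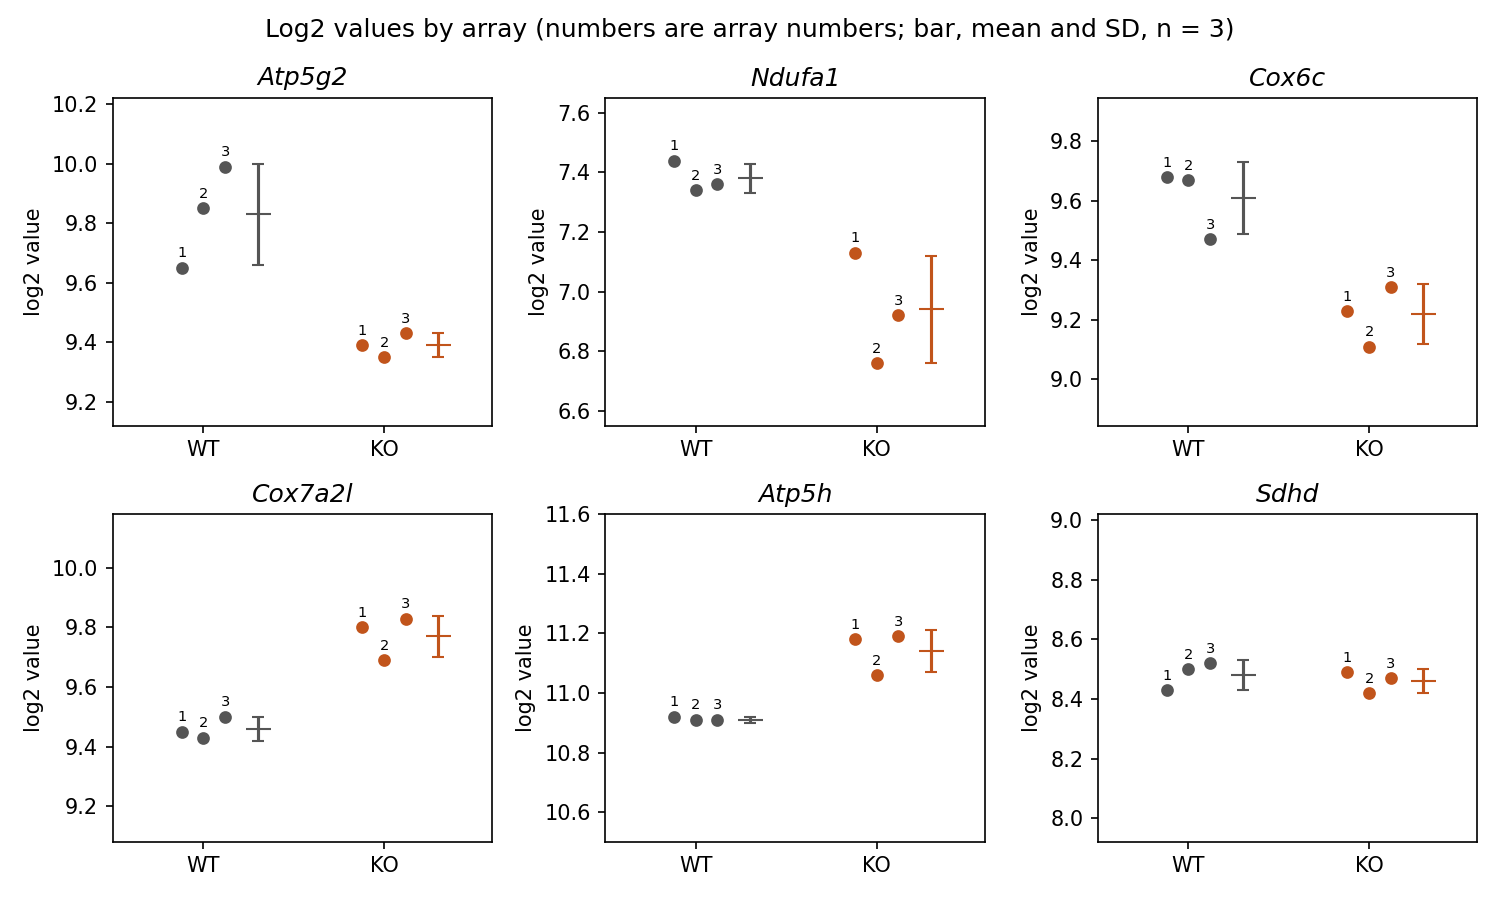
Deposited log2 values (y axis) on the 3 WT and 3 KO arrays (x axis) for 6 genes, 1 panel per gene, with points numbered by array and the mean and SD beside them (n = 3). Atp5g2, Ndufa1 and Cox6c were lower on every KO array, Cox7a2l and Atp5h were higher on every KO array, and the groups of Sdhd overlap.

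Complex IV, cytochrome c oxidase, was the most mixed set, with 10 of 17 genes negative, a median of -0.14 (range -0.39 to 0.31) and none called (3 had an unadjusted p under 0.05). KO lay below WT without overlap for 5 genes (29.4%) and above for 4 (23.5%), against 31.5% and 8.43% of probe sets as bright. Over all tested probe sets these shares were 16.5% and 13.5%. Cox7b2 (mean 3.69) and Cox8c (5.71), both among those above, were dimmer than the probe sets as bright, which begin at 5.95. On the deposited values the positive differences were those of Cox7a2l and of the tissue-specific isoforms Cox4i2, Cox6a2, Cox7a1, Cox7b2, Cox8b and Cox8c. Probe sets of these isoforms, described below, had mean values of 3.69 to 6.51. Among the 4 above without overlap only Cox7a2l was not such an isoform. After quantile normalization the median of the complex was -0.05, with 9 of 17 negative and 1 called. Without WT array 3 or KO array 2 the deposited values gave medians of -0.07 and -0.08. Cox6c, a small subunit, read 9.68, 9.67 and 9.47 in WT and 9.23, 9.11 and 9.31 in KO. Its groups did not overlap, and the difference was -0.39 (SE 0.10, limma adjusted p = 0.053), or -0.33 after quantile normalization (limma adjusted p = 0.073). The limma adjusted p of Cox6c lay between 0.015 and 0.21 over the alternatives. Cox7b and Cox6b1, further small subunits, differed by -0.30 (limma adjusted p = 0.085) and -0.21 (limma adjusted p = 0.20), both without overlap.

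Cox7a2l, a relative of Cox7a2 that has been linked to supercomplexes of complexes III and IV, went the other way. Supercomplexes were not measured here. WT read 9.45, 9.43 and 9.50, and KO read 9.80, 9.69 and 9.83. Every KO array was above every WT array, including KO array 2. On the deposited values the difference was 0.31 (SE 0.09, 95% interval 0.11 to 0.51) and was not called (limma adjusted p = 0.071). It was called after quantile normalization, at 0.37 (limma adjusted p = 0.044), and after cyclic loess, at 0.40 (limma adjusted p = 0.033). A second probe set of the gene also had a positive difference, of 0.18, but was not called (limma adjusted p = 0.25). After quantile normalization it differed by 0.28 and was again not called (limma adjusted p = 0.16). The call of the brightest probe set was lost after quantile normalization without KO array 2, with a difference of 0.38 (limma adjusted p = 0.11). Cox7a2 itself differed by -0.12, with overlapping groups, and by 0.02 after quantile normalization.

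Several subunits of complex IV, and Ndufa4 (an accessory protein first placed in complex I and later in complex IV), have isoforms typical of muscle, lung, testis or low oxygen beside the common form. In thymocytes the probe sets of the 8 tissue-specific isoforms (Cox4i2, Cox6a2, Cox6b2, Cox7a1, Cox7b2, Cox8b, Cox8c and Ndufa4l2) had mean values of 3.69 to 6.51, around or below the median signal. Their median difference was 0.19, with 7 of 8 positive and none called (1 had an unadjusted p under 0.05), and it was 0.14 after quantile normalization. All tested probe sets had medians of 0.08, 0.15, 0.16 and 0.05 in the bins near 3.85, 4.98, 5.49 and 6.13, and of 0.01, 0.03, 0.05 and 0.03 after quantile normalization. On the deposited values each of the common forms had a negative difference, except Ndufa4 at 0.19. There the pairs were -0.15 for Cox4i1 and 0.21 for Cox4i2, -0.17 for Cox6a1 and 0.17 for Cox6a2, and -0.18 for Cox8a against 0.18 for Cox8b and 0.21 for Cox8c. After quantile normalization they were -0.07 and 0.16, -0.05 and 0.20, and -0.05 against 0.06 and 0.13. Cox6b2, the testis form of Cox6b1, differed by -0.17, and Cox7a1, the muscle form of Cox7a2, by 0.16 (-0.25 and 0.07 after quantile normalization). Ndufa4l2, the form induced by low oxygen, read 4.69, 4.83 and 4.89 in WT and 5.31, 5.04 and 5.27 in KO. Its groups did not overlap, and the difference of 0.40 (limma adjusted p = 0.057) became 0.29 after quantile normalization (limma adjusted p = 0.19).

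ATP synthase, the enzyme that makes ATP, had 1 called gene of 17 (5.88%). Over all tested probe sets the share was 5.79%, and over those as bright 9.83%. The median of ATP synthase was -0.15 (range -0.44 to 0.23), with 14 negative. After quantile normalization it was -0.08 with 14 negative and none called (4 had an unadjusted p under 0.05). Atp5g2 encodes 1 of the 3 precursors of the proton-carrying c subunit, and it fell. WT read 9.65, 9.85 and 9.99, and KO read 9.39, 9.35 and 9.43. The groups did not overlap, and the WT arrays were spread more widely than the KO arrays. Its difference was -0.44 (SE 0.11, 95% interval -0.68 to -0.20, limma adjusted p = 0.044), leaving 73.8% of the WT signal. All 3 probe sets of the gene were lower, by -0.44 to -0.35, and 2 of them were called. Quantile normalization gave -0.39 (limma adjusted p = 0.094). Among the 6 fits that left out 1 array, Atp5g2 was called in the one without WT array 1, at -0.53 (limma adjusted p = 0.041), and it was -0.42 without KO array 2 (limma adjusted p = 0.13).

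The other c subunit genes, which make the same mature protein, had smaller differences on these arrays. Atp5g1 read 7.61, 7.69 and 7.63 in WT and 7.68, 7.34 and 7.31 in KO, with overlap and a difference of -0.20 (limma adjusted p = 0.30). A second probe set of Atp5g1 differed by -0.30 without overlap (limma adjusted p = 0.098). After quantile normalization it differed by -0.17 with overlap (limma adjusted p = 0.34). Atp5g3 read 10.31, 10.25 and 10.31 in WT and 10.23, 10.19 and 10.14 in KO, without overlap and with a difference of -0.11 (limma adjusted p = 0.46). Whether these differences differ from that of Atp5g2 was not tested.

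In the rest of ATP synthase, Atp5e, the epsilon subunit of the central stalk, differed by -0.32 (limma adjusted p = 0.12), and Atp5md, a small subunit of the membrane part, by -0.31 (limma adjusted p = 0.20). Atp5h, subunit d of the peripheral stalk, was higher on every KO array. It read 10.92, 10.91 and 10.91 in WT and 11.18, 11.06 and 11.19 in KO, a difference of 0.23 (95% interval 0.04 to 0.43, limma adjusted p = 0.14), or 0.22 after quantile normalization (limma adjusted p = 0.17). All 3 of its probe sets had a positive difference, from 0.23 to 0.30. Atp5j2, another subunit of the membrane part, and Atp5d, the delta subunit of the central stalk, differed by 0.04 and 0.00 with overlapping groups.

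Of the 17 genes with several probe sets, all probe sets were negative for 13, all positive for Atp5h and Cox7a2l, and of mixed sign for Atp5pb and Ndufa11. The spread among the 89 differences (SD 0.19, or 0.18 after quantile normalization) stood beside a median SE of 0.10 for a single gene. Transcripts of pseudogenes that may share probes with a member were not analysed here.

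The promoter letters shown above recur among the members. A RefSeq promoter around the start was matched for 73 of the 89 genes, giving 78 promoters. The NRF1 letters were found in 15.4% of these against 2.71% of 32851 promoters in the table, the ETS letters in 23.1% against 8.86%, and the YY1 letters in 8.97% against 1.4%. At least 1 of the 3 was present in 39.7% of member promoters against 12.1% of all. The 12 genes with NRF1 letters had a median difference of -0.21 and the 61 without had -0.13, and after quantile normalization these were -0.08 and -0.05. For the ETS letters the medians were -0.19 with (18 genes) and -0.13 without (55 genes), or -0.07 and -0.05 after quantile normalization. For the YY1 letters they were -0.07 with (7 genes) and -0.15 without (66 genes), or 0.01 and -0.06 after quantile normalization. A match describes letters only and not binding.

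Other genes of the respiratory system gave a similar spread of small differences with a few larger ones. Of the assembly factors of the respiratory chain and ATP synthase outside the rule, 35 of 39 were measured, none was called by limma (6 had an unadjusted p under 0.05 on either scale), and the median was -0.04 with 27 of 35 negative, or 0.02 with 16 negative after quantile normalization. Cytochrome c and its partners (4 genes) had a median of -0.17 (-0.07 after quantile normalization) and no call by limma (1 had an unadjusted p under 0.05, and 0 after quantile normalization). Cycs, cytochrome c itself, read 8.90, 9.17 and 8.76 in WT and 8.57, 8.60 and 8.68 in KO, without overlap, a difference of -0.32 (limma adjusted p = 0.13). In coenzyme Q synthesis 1 of 12 measured genes was called (8.33%, against 5.79% of all tested probe sets and 9.83% of those as bright). This was Coq7, a hydroxylase of the pathway. It fell by 0.50 on the log2 scale (limma adjusted p = 0.028, and 0.046 after quantile normalization), and it was called in 1 of the 6 fits that left out 1 array (limma adjusted p from 0.047 to 0.10). The median of the list was -0.11, or -0.03 after quantile normalization. Of the 13 subunits encoded in mitochondrial DNA, 2 had a probe set of their own, ND3 of complex I and COX2 of complex IV, which differed by 0.13 and 0.07 with overlapping groups. Nuclear copies of mitochondrial DNA can share such probes.

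Among 21 measured regulators of mitochondrial gene expression, 3 were called (14.3%), all lower, and 2 after quantile normalization (9.52%). Over all tested probe sets these shares were 5.79% and 4.00%, and over those as bright 9.83% and 6.71%. The list is short, so its share rests on few genes. Its median was -0.12, or -0.05 after quantile normalization. Myc, a transcription factor that drives growth and mitochondrial biogenesis, read 7.95, 7.91 and 7.76 in WT and 6.84, 6.18 and 6.81 in KO. Its groups lay far apart, with a difference of -1.26 (SE 0.17, limma adjusted p = 0.0035), or -1.18 after quantile normalization (limma adjusted p = 0.0087), and it was called in all 6 fits that left out 1 array. Tfb1m, the methyltransferase of mitochondrial ribosomal RNA, fell by 0.66 (limma adjusted p = 0.016), and Lrpprc, which stabilises mitochondrial mRNA, by 0.40 (limma adjusted p = 0.041). Among the 6 fits that left out 1 array they were called in 4 and 1. The call of Lrpprc was lost after quantile normalization, at -0.27 (limma adjusted p = 0.11). Nrf1, whose motif was searched above, differed by -0.04 (0.08 after quantile normalization), the mitochondrial DNA-packaging factor Tfam by -0.19 and the coactivator Ppargc1b by -0.26, and none of the 3, which were picked after their values were seen, was called (limma adjusted p from 0.13 to 0.82).

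In the tricarboxylic acid cycle, which supplies the NADH and succinate, 2 of 13 measured genes were called (15.4%), and 1 after quantile normalization (7.69%). Over all tested probe sets these shares were 5.79% and 4.00%, and over those as bright 9.83% and 6.71%. The median of this short list was -0.20, or -0.13 after quantile normalization. Suclg2, the GTP-forming subunit of succinyl-CoA ligase, read 7.40, 7.37 and 6.98 in WT and 6.44, 6.07 and 6.23 in KO. These groups did not overlap, the difference was -1.01 (SE 0.14, limma adjusted p = 0.0045), or -0.96 after quantile normalization (limma adjusted p = 0.0061), and it was called in all 6 fits that left out 1 array. Idh3g, a subunit of NAD-dependent isocitrate dehydrogenase, fell by 0.36 (limma adjusted p = 0.047), a call that was lost after quantile normalization (limma adjusted p = 0.061). Mitochondrial protein import had a median of -0.18 (-0.07 after quantile normalization) over 20 genes. Of these 1 was called (5.00%, near the share of all tested probe sets), the inner membrane translocase gene Timm17b. Timm17b fell by 0.40 (limma adjusted p = 0.047) and was not called after quantile normalization (limma adjusted p = 0.21). Neither Idh3g nor Timm17b was called in any of the 6 fits that left out 1 array (limma adjusted p from 0.055 to 0.15). Adenine nucleotide and phosphate carriers had a median of -0.15 (-0.17 after quantile normalization) over 9 genes and no call by limma (4 had an unadjusted p under 0.05, and 3 after quantile normalization).

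The mitochondrial ribosome, which translates the subunits encoded in mitochondrial DNA, had a median of -0.12 over 77 genes and 5 called, all lower. That is 6.49% of the list, near the share of all tested probe sets and under that of probe sets as bright. Mrpl52 fell by 0.58 (limma adjusted p = 0.0098) and Mrpl48 by 0.55 (limma adjusted p = 0.014), and both were also called after quantile normalization, at -0.44 and -0.42. Mrps6, Mrpl36 and Mrpl41 fell by 0.47, 0.41 and 0.40 and were not called after quantile normalization. Among the 6 fits that left out 1 array Mrpl52 was called in 6, Mrpl48 in 3, Mrpl41 in 2 and the others in 0. On the quantile scale the median was -0.02 and 4 genes were called (5.19%, against 4.00% of all tested probe sets and 6.71% of those as bright). Mrpl42 was the third lower call, at -0.47 (limma adjusted p = 0.048), and Mrps16, a protein of the small subunit, was called higher at 0.50 (limma adjusted p = 0.038).

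**Figure D5:**
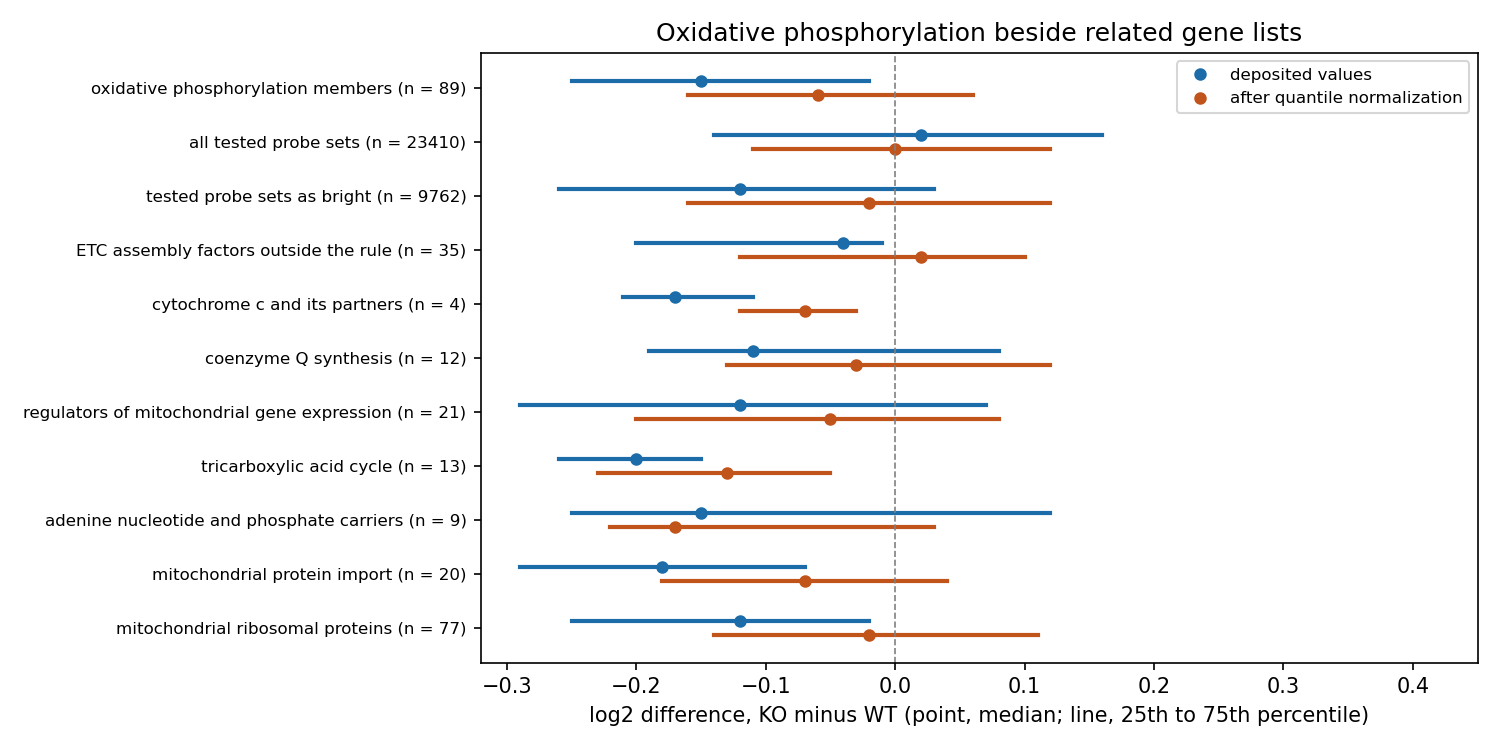
Median (point) and 25th to 75th percentile (line) of the log2 difference between KO and WT (x axis) for the oxidative phosphorylation genes, all tested probe sets, probe sets as bright and the related gene lists (y axis), on the deposited values and after quantile normalization. The members' median is -0.15 and then -0.06, and that of probe sets as bright is -0.12 and then -0.02.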

How the data were processed

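The authors deposited log2 values, 1 per probe set, for 6 Affymetrix whole-transcript arrays, 3 per genotype, and that scale was read from their range (1.94 to 13.98). The sources used here do not give the background correction, normalization or probe summary. Means of the 6 arrays lay between 5.99 and 6.01, and the number of arrays limits the precision. Of 28853 probe sets, 23410 with at least 1 gene in the platform annotation were tested with limma 3.58.1 (lmFit and eBayes, R 4.3.3) with a mean for each genotype, two-sided, with Benjamini-Hochberg adjustment over all of them and a threshold of 0.05. Genes were named from the 21789 probe sets with 1 symbol. All 89 members matched RefSeq by Entrez identifier. The level of 1 probe set was not set against that of another, and detection calls were not used. With 3 arrays per genotype the smallest two-sided p of an exact permutation test is 0.1, and none was run.

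Named genes are Hdac3, called members, in each complex the 3 largest positive and 3 largest negative differences above the median signal, tissue-specific isoforms with their common form, the Sdh genes and called genes of the related lists. Others were named after their values were seen. The members and lists were chosen with earlier results of these data known. Alternatives were quantile normalization, median centring, cyclic loess, a filter on dim probe sets, tests of all probe sets, limma's trended and robust prior, weights per array, a block for the replicate number, fits without 1 array, and means over a gene's probe sets. Promoters came from RefSeq on GRCm38.p6.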

Additional observations from a re-analysis of the deposited data

How the results depend on the processing

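The count of called members, 2 in the report, moved with most choices. It was 1 after quantile normalization and after cyclic loess (Cox7a2l both times), 8 after median centring, 8 with dim probe sets left out, 0 over all 28853 probe sets (limma, 28 with an unadjusted p under 0.05), 9 with an intensity trend and robust prior and 6 with array weights. Leaving out 1 array gave 0 to 2 members and 474 to 1946 of all probe sets. It gave 0 without WT array 2, KO array 2 or KO array 3 (limma, 13, 14 and 20 with an unadjusted p under 0.05), Cox6c and Ndufaf5 without WT array 3, Ndufa1 and Ndufaf5 without KO array 1, and Atp5g2 without WT array 1. The counts over all probe sets were 517, 505, 1946, 826, 474 and 489 without WT arrays 1 to 3 and KO arrays 1 to 3. They were 2060 after median centring and 2285 with array weights. The share after median centring was 8.80% of all tested probe sets and 16.6% of those as bright, against 8.99% of the members. With dim probe sets left out 1812 of 11705 probe sets were called, beside 8 of 81 members. The trend and robust prior called 1899 of 23410, and the fit over all 28853 probe sets called 1215. Quantile normalization and cyclic loess called 936 and 1021.

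The members' median stayed negative under every alternative run. It was -0.06 after quantile normalization and after cyclic loess and -0.25 after median centring. Probe sets as bright were also negative, with medians of -0.02 after quantile normalization, -0.03 after cyclic loess and -0.22 after median centring. For the members, by complex, medians were as follows. After quantile normalization complex I was -0.03, complex II -0.15 and complex III -0.10. After cyclic loess complex II was -0.16, complex III -0.09 and ATP synthase -0.06. After median centring complex II was -0.35, complex III -0.27 and ATP synthase -0.25. Without 1 array complex III lay between -0.20 and -0.12. Of the members named by the rule, Sdhd, Cox7a2, Uqcr10, Atp5j2 and Atp5d changed sign. Among genes named after their values were seen, Uqcrfs1 (-0.05) became 0.08 and 0.06, and Nrf1 (-0.04) 0.08 and 0.07, after quantile normalization and cyclic loess, and Rag1 (0.07) became -0.01 after cyclic loess. Sdhd was 0.11 and Cox7a2 0.02 after quantile normalization, and 0.10 and 0.01 after cyclic loess. Median centring gave -0.06 for Uqcr10 and Atp5j2 and -0.10 for Atp5d. With 1 array left out Uqcr10 ranged from -0.04 (without WT array 2) to 0.17, and Atp5d from -0.05 (without KO array 1) to 0.09, with -0.01 without WT array 3 and -0.03 without KO array 3.

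A pair of alternatives was chosen after seeing the data. Quantile normalization without KO array 2 called 0 members (limma, 12 with an unadjusted p under 0.05) and 437 of all probe sets, with medians of -0.06 in all, -0.01 in complex I, -0.17 in complex II and -0.06 in complex III, and Sdhd at 0.11. Quantile normalization joined to the filter on dim probe sets gave -0.07 in all, -0.03, -0.15 and -0.10 in complexes I to III, Sdhd at 0.11 and Cox7a2 at 0.02. The cause of these changes was not tested.

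With the replicate number as a block 1 member was called, Ndufa1, and 1162 of all probe sets. Deviations of same-numbered arrays correlated at 0.25, -0.07 and -0.03, so the number does not show a pairing. Detection above background was not assessed, which bears most on the 8 members at or below the median signal.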
